A study of Mus musculus with 4 samples.

Results

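Malat1, Neat1 and the small nucleolar RNA (snoRNA) host genes Gas5, Snhg1, Snhg3, Snhg5, Snhg6, Snhg8 and Snhg12 are 9 long noncoding RNA genes, taken by symbol from the 43496 Ensembl genes of a count table of mouse embryonic stem cells. A row was found for 7 of the 9. Snhg1 and Snhg8 had no row under their GENCODE M21 identifiers and are not analysed here, although snoRNAs annotated inside both had rows. All 7 genes with a row passed the filter on low counts. Their mean counts scaled to library size (CPM), which are not corrected for length, ranked from 468 for Malat1 to 7274 for Snhg3 among the 15735 genes tested. Whether the RNAs were nuclear was not measured.

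The cells were E14, a pluripotent line of strain 12910la per the labels, kept in serum and LIF on gelatin. One group of 2 libraries came from cells given 1000 ng of a pSuper puro plasmid with an shRNA against the endogenous retrovirus MERVL, with the genotype label "MERVL knocked down". The other 2 libraries came from cells given a random shRNA, with the genotype label "wild type". In both, puromycin at 1 µg/ml began 24 h after transfection and lasted 4 days, so each library is a selected pool, and total RNA entered a randomly primed mRNA-seq kit. Separate cultures are not mentioned for the replicates, so the p-values speak of the spread among these 4 libraries, possibly a technical one.

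Malat1 and Neat1 are neighbouring genes whose transcripts are retained in the nucleus: Malat1 RNA collects in nuclear speckles, where splicing factors are stored, and Neat1 RNA is the scaffold of paraspeckles, bodies built on RNA-binding proteins such as Nono and Sfpq. Malat1 RNA and the long form of Neat1 RNA do not end in an ordinary poly(A) tail. A stretch near the 3′ end of each folds into a triple helix that protects it. The snoRNA host genes carry snoRNAs in their introns, which are cut out and guide the modification of ribosomal and spliceosomal RNA. Many spliced host RNAs begin with a run of pyrimidines as ribosomal protein mRNAs do, and are degraded by nonsense-mediated decay when translated.

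The 3′ elements of the nuclear pair are shown because they set Malat1 RNA and the long form of Neat1 RNA apart from ordinary polyadenylated RNA. Sequences are from GENCODE M21 on GRCm38, minus strand, written 5′ to 3′, and capitals mark the U-rich letters TTTGCTTTT and the A-rich letters AAAGCAAAA, searched on the transcript strand. The Malat1 stretch, at chr19:5795982-5796036, lies 292 bases before the annotated end of the gene, and that of Neat1, at chr19:5824708-5824769, lies at the annotated end.
Malat1: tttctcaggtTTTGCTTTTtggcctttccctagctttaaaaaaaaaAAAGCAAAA
Neat1: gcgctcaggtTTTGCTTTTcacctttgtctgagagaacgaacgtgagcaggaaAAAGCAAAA
Both sets of letters, in this order and within 100 bases, were found in 7 of 141767 annotated transcripts (0.00494%), which came from 6 genes.

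The host genes are represented by 4 of the snoRNAs that lie inside them. Further on, values are given for Snora24 alone, and for the others within sums over the rows of their host. Capitals mark the C box (TGATGA) and D box (CTGA) of box C/D snoRNAs, which guide 2′-O-methylation, or the ACA box of the box H/ACA class, which guides pseudouridylation. A search of the first and last 20 bases found both the C and the D box in 18 of the 29 annotated snoRNAs inside the host genes. Snord47 lies in Gas5 at chr1:161038082-161038158 on the plus strand, Snora24 in Snhg8 at chr3:123507937-123508066 on the minus strand, and Snord50a and Snord50b in Snhg5 at chr9:88521529-88521600 and chr9:88521797-88521868 on the minus strand.
Snord47: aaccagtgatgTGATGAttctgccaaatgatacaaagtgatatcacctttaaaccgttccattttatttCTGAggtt
Snora24: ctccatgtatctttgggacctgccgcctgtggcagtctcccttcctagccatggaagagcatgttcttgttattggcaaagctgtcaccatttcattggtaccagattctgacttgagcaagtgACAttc
Snord50a: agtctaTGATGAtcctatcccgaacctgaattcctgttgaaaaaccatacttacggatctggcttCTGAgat
Snord50b: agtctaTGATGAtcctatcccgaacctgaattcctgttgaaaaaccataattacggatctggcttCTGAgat
The 2 copies in Snhg5 differ only by C50A, counted from 1 at the 5′ end of Snord50a, so reads can be split between them and the value of either is uncertain.

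The starts of 3 host genes are shown as examples of the region in which such RNAs are known to carry a pyrimidine run. Sequences are from RefSeq on GRCm38.p6, the annotated start lies in the middle of each, and capitals mark the longest run of C or T within 20 bases of that start on the gene's strand. They cover chr1:161035136-161035195 on the plus strand for the second RefSeq start of Gas5, chr9:88522868-88522927 on the minus strand for Snhg5, and chr4:132308648-132308707 on the plus strand for Snhg12.
Gas5: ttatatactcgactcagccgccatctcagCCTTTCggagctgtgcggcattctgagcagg
Snhg5: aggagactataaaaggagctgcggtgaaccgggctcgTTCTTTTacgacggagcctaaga
Snhg12: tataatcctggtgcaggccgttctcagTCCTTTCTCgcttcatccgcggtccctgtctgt
The runs were 6 bases in Gas5, 7 in Snhg5 and 9 in Snhg12, and began at position -1, 8 and -3 relative to the annotated start. A run at least that long was found in 37.5%, 24.3% and 10.7% of 32851 RefSeq promoters in the same window, so runs of 6 or 7 bases are common, and a match describes the letters only. The longest run was shorter at the first RefSeq start of Gas5, with 3 bases (93.7% of promoters), and at Snhg3, with 5 bases (57.5%).

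Totals ranged from 11628887 to 16067854 estimated counts per library, and 16353 features (15735 genes and 618 MERVL copies) were tested with edgeR. MERVL, the target, summed to 1163 and 574 CPM in the MERVL shRNA libraries, against 4662 and 1434 CPM in the random shRNA libraries. Libraries of one group differed beyond sampling noise, by a chi-square per degree of freedom of 5.94 in the MERVL shRNA pair and 32.1 in the random shRNA pair. All 9 embryonic stem cell markers were present, with Pou5f1 between 1244 and 1574 CPM. The 8 markers of the 2-cell-like state, which MERVL marks, summed to 283 and 173 CPM in MERVL shRNA cells, against 1375 and 369 CPM in random shRNA cells, so random shRNA replicate 1 stood apart in them as in MERVL. The 8 feeder or fibroblast markers summed to 9.43 and 7.73 CPM in MERVL shRNA cells, against 25.5 and 30.7 CPM in random shRNA cells. Most of that sum was Thy1, and 4 of the 8 (Col3a1, Postn, Lum and Dcn) were at 0 in each library; the part of such cells in any result was not tested.

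None of the 7 noncoding RNAs passed the test between groups, at an adjusted or an unadjusted p under 0.05, and Malat1 and Neat1 differed more between the MERVL shRNA libraries than between the group means. Malat1 (ENSMUSG00000092341; GRCm38 chromosome 19, 5795690 to 5802672, minus strand) reached 474 and 229 CPM in the MERVL shRNA libraries, against 219 and 325 CPM in the random shRNA libraries. The highest and a middle value thus belonged to MERVL shRNA cells, and the groups overlapped. Means were 352 ± 173 CPM in MERVL shRNA cells and 272 ± 75.0 CPM in random shRNA cells (SD, n = 2 each). The log2 fold change of 0.37 ± 0.36 (SE) had a 95% interval of -0.49 to 1.24 and an adjusted p of 0.711 in edgeR's quasi-likelihood test. In that test 1 of the 16353 features passed, 0.00612%, so a count of 0 among 7 RNAs is near the share over the whole table. In bulk RNA, fewer cells with an RNA and less of it per cell cannot be told apart.

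Neat1 (ENSMUSG00000092274; chromosome 19, 5824708 to 5845478, minus strand) gave the largest positive fold change of the 7 with all 4 libraries, though its groups overlapped too. It had 175 and 102 CPM in the MERVL shRNA libraries, against 80.7 and 112 CPM in the random shRNA libraries. As with Malat1, MERVL shRNA replicate 1 stood above the other 3 libraries. Its log2 fold change was 0.53 ± 0.28 (SE), with an interval of -0.15 to 1.21 and an adjusted p of 0.475 (edgeR). Without a filter on low counts, where 4.75% of 27235 features passed and 270 of them were higher, Neat1 passed at 0.55 (adjusted p = 0.0446, edgeR).

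**Figure D1:**
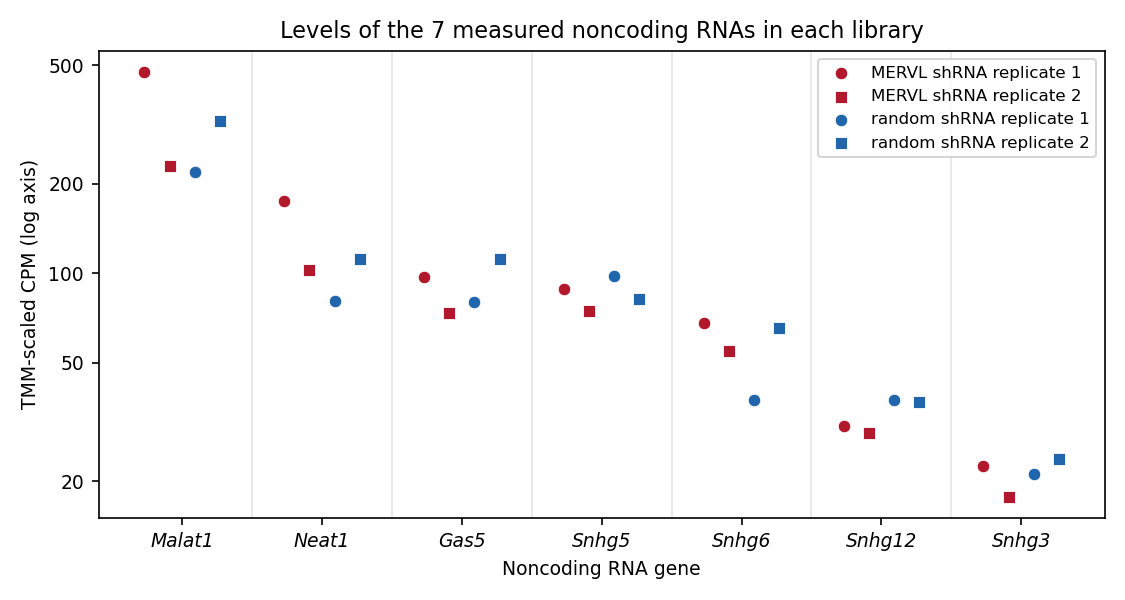
Level of each of the 7 noncoding RNAs in each library, in TMM-scaled CPM on a log axis; red points are the MERVL shRNA libraries and blue points the random shRNA libraries, with circles for replicate 1 and squares for replicate 2. Malat1 and Neat1 are highest in MERVL shRNA replicate 1, and Snhg12 alone has both MERVL shRNA libraries (30.6 and 29.0 CPM) below both random shRNA libraries (37.5 and 36.9 CPM).

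The 2 nuclear RNAs followed the same order of libraries. The ratio of Malat1 to Neat1 CPM, which is not corrected for length, was 2.71 and 2.24 in the MERVL shRNA libraries, against 2.71 and 2.92 in the random shRNA libraries. By the distance between centred log2 CPM patterns over the 4 libraries, Neat1 was the third nearest of 9505 genes to Malat1 (0.141), and Malat1 the sixth nearest to Neat1. Such a likeness over 4 libraries describes these libraries only.

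Other genes near Malat1 in pattern were Gm37376 (distance 0.0732), Gm47283 (0.122) and Gm6254 (0.164). Gm37376 lies within Malat1 on the opposite strand, and the sources used here do not say whether counting used strand, so their reads cannot be told apart. Nearest to Neat1 were the processed pseudogene Gm6254 on chromosome 14 (0.0389), Dtx3 (0.109) and Gabbr1 (0.115). The short annotated pieces within the genes, Gm27694 in Malat1 and Gm27533, Gm27505 and Gm28006 in Neat1, share their reads, were also highest in MERVL shRNA replicate 1, and did not pass.

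Frmd8, a protein-coding gene that lies 4223 bases from Neat1, did not pass either. It had 41.1 and 50.5 CPM in MERVL shRNA cells, against 59.5 and 43.7 CPM in random shRNA cells. Its lowest value was thus in MERVL shRNA replicate 1, the library in which Malat1 and Neat1 were highest. Of the protein-coding genes nearest to or overlapping the host genes, those with enough counts to be tested did not pass.

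The gap between libraries of one group was itself uncommon for both nuclear RNAs. Between the MERVL shRNA libraries, Malat1 differed 2.07-fold and Neat1 1.71-fold, gaps exceeded by 0.0421% and 0.263% of the 9506 genes with a mean of at least 10 CPM. In the random shRNA pair the order was the opposite, with replicate 2 higher by 1.48-fold for Malat1 and 1.38-fold for Neat1, gaps that 14.6% and 23.2% of those genes exceeded. The normalized scores, the second table, kept the MERVL shRNA gap, with 6619 and 3259 for Malat1, and held 4032 and 3850 in the random shRNA libraries. On these scores the order in the random shRNA pair thus turned, with replicate 1 higher by 1.05-fold for Malat1 and 1.06-fold for Neat1. Orders within the random shRNA pair given below are those of CPM.

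Among genes higher in MERVL shRNA replicate 1 than replicate 2, Malat1 had the fifth widest gap. The widest was that of the protein-coding gene Tmem92 (6.05 and 2.19 CPM in MERVL shRNA cells, against 43.2 and 12.5 CPM in random shRNA cells), whose order in the random shRNA pair was the opposite of that of Malat1. Rn7sk and Kcnq1ot1, the next in that ranking and, like the other genes named from it, singled out after their values were seen, are noncoding RNAs that act in the nucleus: 7SK RNA holds the elongation factor P-TEFb inactive, and Kcnq1ot1 silences imprinted genes. Rn7sk had 26.1 and 10.7 CPM in the MERVL shRNA libraries, against 7.01 and 19.6 CPM in the random shRNA libraries. Kcnq1ot1 had 17.4 and 7.24 CPM in the MERVL shRNA libraries, against 8.61 and 14.2 CPM in the random shRNA libraries. Both had the Malat1 order in each pair: replicate 1 above 2 with MERVL shRNA, and replicate 2 above 1 with random shRNA. Lmtk3, the protein-coding gene directly below Malat1 in the ranking, was nearly level in the random shRNA pair, with replicate 1 slightly higher. The next, Gm4027 and Zscan4b, had the order of Tmem92. Log2 fold changes were -2.75 for Tmem92, -2.07 for Gm4027 and -1.90 for Zscan4b. Each was highest in random shRNA replicate 1, as was the sum of the 2-cell-like markers. The marker Zscan4c followed in the ranking with the same order. These genes thus do not stand for protein-coding genes in general.

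All 7 noncoding RNAs were higher in MERVL shRNA replicate 1 than in replicate 2, as were 42.6% of 9050 protein-coding genes and 55.1% of 167 other long noncoding genes at this level. The median log2 ratio of replicate 1 over 2 with MERVL shRNA was 0.34 for the 7, 0.03 for other long noncoding genes and -0.03 for protein-coding genes. With random shRNA it was -0.47, -0.05 and 0.04 for the same 3 sets. For the 7 on the normalized scores, the ratio of replicate 1 over 2 with random shRNA ran from 0.969 (Snhg12) to 1.06 (Neat1). The part that RNA quality or library preparation has in these gaps was not tested.

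**Figure D2:**
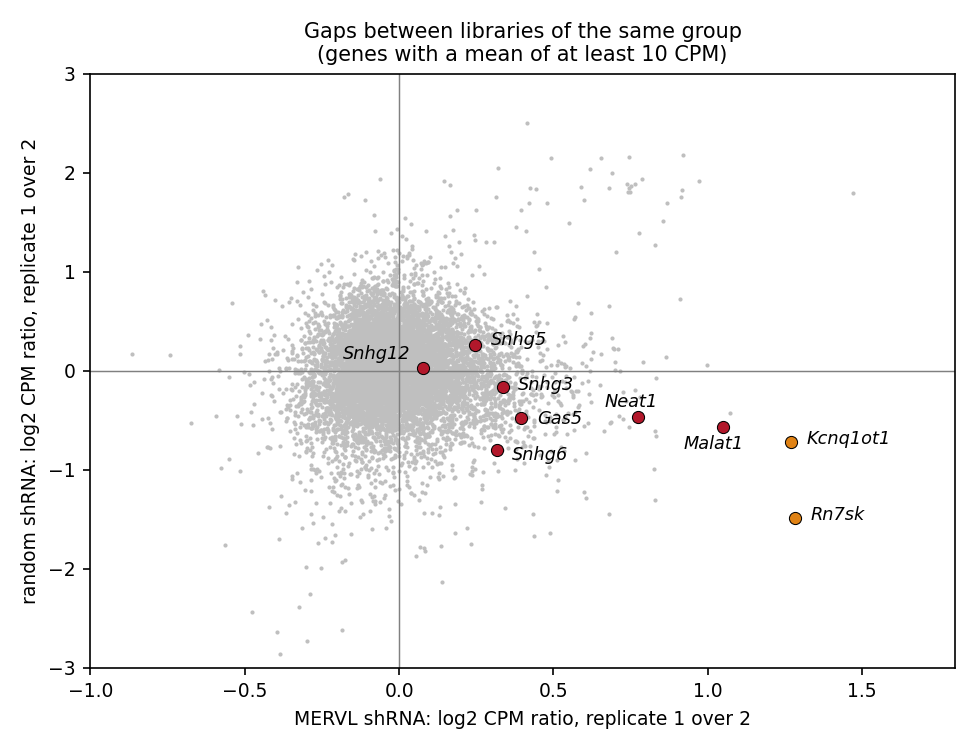
Each point is a gene with a mean of at least 10 CPM, placed by its log2 CPM ratio of replicate 1 over replicate 2 in the MERVL shRNA pair (horizontal) and in the random shRNA pair (vertical); red points are the 7 noncoding RNAs, orange points Kcnq1ot1 and Rn7sk, and grey points the other genes, of which 1 lies outside the axes. Malat1 and Neat1 lie at the right edge, at 1.05 and 0.77, and below 0 on the vertical axis, and all 7 noncoding RNAs lie right of 0.

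Among the host genes, Snhg12 alone had groups that did not overlap. Snhg12 (ENSMUSG00000086290; chromosome 4, 132308623 to 132311024, plus strand) had 30.6 and 29.0 CPM in the MERVL shRNA libraries, against 37.5 and 36.9 CPM in the random shRNA libraries. Both pairs were tight, at 29.8 ± 1.14 CPM with MERVL shRNA and 37.2 ± 0.408 CPM with random shRNA (SD, n = 2 each). Its log2 fold change was -0.32 ± 0.14 (SE), with an interval of -0.66 to 0.02 and an adjusted p of 0.385 (edgeR). Of all genes tested, 21.8% had both MERVL shRNA libraries below both random shRNA libraries and 23% had both above, so 1 of 7 below and 0 of 7 above is no more than the table as a whole. On the normalized scores Snhg12 passed in limma at -0.34 (adjusted p = 0.0438), a test that 19.6% of 17823 features passed, 1838 of them as lower. The scores, made by an unnamed method, can bring libraries of a group closer. Snhg6 had 37.3 and 65.2 CPM in the random shRNA libraries, but scores of 743 and 722. That spread enters the limma test, so passing on the scores, here or below, is not an independent check.

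Gas5 (ENSMUSG00000053332; chromosome 1, 161034422 to 161038539, plus strand), whose RNA accumulates when growth stops and hosts a large snoRNA cluster, had 96.7 and 73.5 CPM in the MERVL shRNA libraries, against 79.8 and 111 CPM in the random shRNA libraries. Its groups interleaved, with the highest value in random shRNA replicate 2 and the lowest in MERVL shRNA replicate 2. The log2 fold change was -0.17 ± 0.22 (SE), with an interval of -0.68 to 0.35 and an adjusted p of 0.798 (edgeR). The genes nearest to it in pattern were 9430015G10Rik, Esco2 and Slc27a1, at distances of 0.0225 to 0.0366, and those nearest to Snhg12 were Mib2, Dennd6a and Gm9797, at 0.00943 to 0.0131.

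Snhg6 (ENSMUSG00000098234; chromosome 1, 9941959 to 9944118, minus strand), host of Snord87, was the only host with a positive fold change. It had 68.1 and 54.7 CPM in the MERVL shRNA libraries, against 37.3 and 65.2 CPM in the random shRNA libraries. Random shRNA replicate 1 was the low value, 1.75-fold under replicate 2, a gap that 5.72% of genes exceeded. The log2 fold change was 0.26 ± 0.27 (SE), with an interval of -0.39 to 0.92 and an adjusted p of 0.734 (edgeR).

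Snhg5 (ENSMUSG00000097195; chromosome 9, 88521050 to 88522929, minus strand), host of Snord50a and Snord50b, had 88.5 and 74.5 CPM in the MERVL shRNA libraries, against 98.2 and 82.1 CPM in the random shRNA libraries. Snhg3 (ENSMUSG00000085241; chromosome 4, 132348014 to 132353686, minus strand), host of Snora73a and Snora73b, had 22.4 and 17.7 CPM in the MERVL shRNA libraries, against 21.2 and 23.7 CPM in the random shRNA libraries. In each, the lowest value was MERVL shRNA replicate 2, and the groups overlapped. The log2 fold change was -0.15 ± 0.16 (SE) for Snhg5, with an interval of -0.53 to 0.24, and -0.16 ± 0.19 (SE) for Snhg3, with an interval of -0.61 to 0.29. Snhg3 shares exons with Rcc1 on its own strand and with Gm17300 on the opposite one, as Snhg6 does with Mcmdc2 on the opposite strand, so reads in the shared parts are uncertain.

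Over the 5 host genes together, 4 fold changes were negative and 1 positive, with a median log2 fold change of -0.16, against 0.0035 over all genes tested. That median was -0.31 without MERVL shRNA replicate 1 and -0.06 without random shRNA replicate 2. It was -0.23, with 0 positive and 5 negative, without random shRNA replicate 1. It turned to 0.0095, with 3 positive and 2 negative, without MERVL shRNA replicate 2. Their summed level was 306 and 249 CPM in the MERVL shRNA libraries, against 274 and 319 CPM in the random shRNA libraries. Malat1 and Neat1 together reached 649 and 332 CPM in the MERVL shRNA libraries, against 300 and 437 CPM in the random shRNA libraries. Neither sum separated the groups.

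Which of the 7 passed depended on which library was left out. Without random shRNA replicate 2, where 32.3% of 17177 features passed, Malat1 rose by 0.70, Neat1 by 0.80 and Snhg6 by 0.73 on the log2 scale (adjusted p = 2.15e-06, 6.02e-09 and 1.49e-07, edgeR). Without random shRNA replicate 1, where 14% of 16890 features passed, none of those 3 did, and Gas5 fell by 0.38 (adjusted p = 0.0166, edgeR). Without MERVL shRNA replicate 1 or 2, none of the 7 passed, and the Malat1 log2 fold change was -0.22 without replicate 1 and 0.81 without replicate 2. With 1 library left out, the remaining library of its group is assumed to vary like the other group. Neat1 ranged from 0.12 without MERVL shRNA replicate 1, where Snhg6 was also at 0.12, to 0.88 without replicate 2. Snhg5 ranged from -0.25 to -0.0038, and Snhg12 varied least, from -0.33 to -0.27 over the 4 fits.

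**Figure D3:**
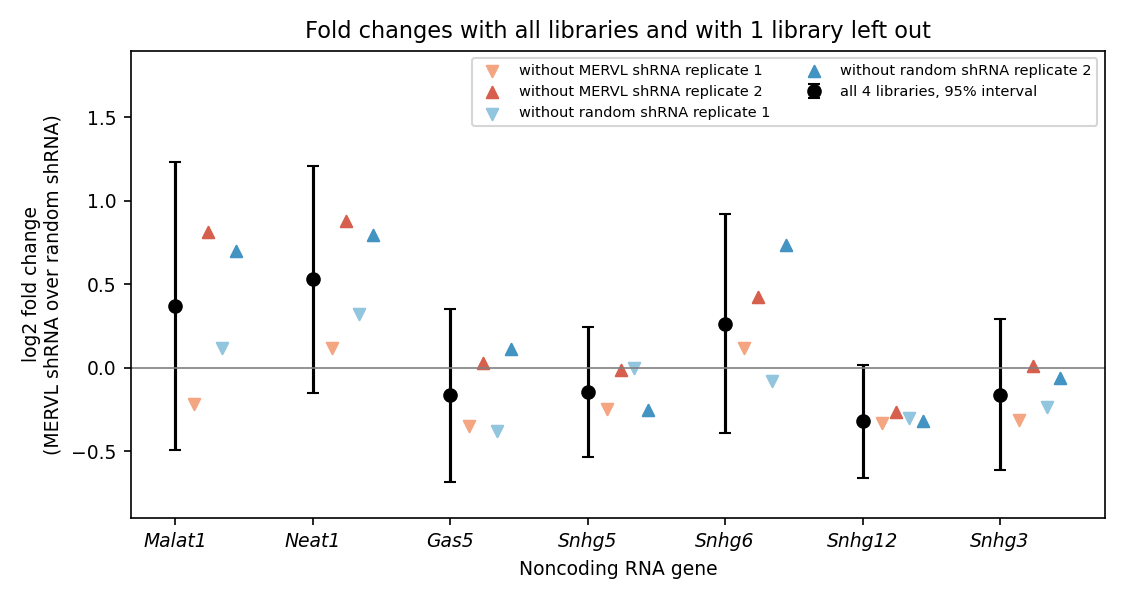
Log2 fold change of MERVL shRNA over random shRNA for each of the 7 noncoding RNAs; black points with bars are edgeR estimates with 95% intervals from all 4 libraries, and coloured triangles are estimates with 1 library left out. Each 95% interval holds 0, the Malat1 triangles run from -0.22 to 0.81, and those of Snhg12 stay between -0.33 and -0.27.

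Levels of the RNAs are set against each other here per length, in CPM per kb of the union of annotated exons. On that scale the means over the 4 libraries were 49.6 for Snhg5, 49.1 for Snhg6 and 44.7 for Malat1, then 24.0 for Gas5 and 21.6 for Snhg3, then 13.9 for Snhg12 and 5.65 for Neat1. The first 3 overlapped over the libraries, at 43.1 to 56.8 for Snhg5, 32.6 to 59.4 for Snhg6 and 31.4 to 67.9 for Malat1. Gas5 and Snhg3 also overlapped, at 19.5 to 29.6 and 18.0 to 24.1. Snhg12 (12.1 to 15.6) and Neat1 (3.89 to 8.42) each stood apart from their neighbours in that order. The exon union covers the whole of Malat1, Neat1 and Snhg12, so the value is lowered where cells make mainly a short isoform, as with the long and short forms of Neat1. Malat1 RNA and the long form of Neat1 RNA also lack an ordinary poly(A) tail. Whether RNA was selected by that tail was not tested, so their place among the host genes is uncertain.

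Inside the host genes, including Snhg1 and Snhg8, 27 annotated snoRNAs had a row and 24 were tested. None passed (0 of 24, against 0.00612% of all features). At an unadjusted p under 0.05 in edgeR there was 1 of 24, Snora24, against 2226 of the 16353 features, so this count does not stand above the table as a whole. In 6 of the 24 both MERVL shRNA libraries lay below both random shRNA libraries and in 0 above, against 21.8% and 23% of all genes. The first count is thus near the share over all genes, and the second is under it. Rows inside one host may share its reads, so they may not be independent. Fold changes were negative in 14 and positive in 10, with a median log2 fold change of -0.14. That median was -0.33 without MERVL shRNA replicate 1 and -0.32 without random shRNA replicate 1. It turned to 0.06 without MERVL shRNA replicate 2 and to 0.08 without random shRNA replicate 2. Since these are counts from an mRNA library with inserts longer than most snoRNAs, whether they come from the mature snoRNA or from unspliced host RNA was not tested.

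Snora24, a box H/ACA snoRNA inside Snhg8, had the lowest fold change of these rows and is the only row inside that gene. It had 38 and 35 estimated counts in the MERVL shRNA libraries, against 72 and 61 in the random shRNA libraries, or 2.39 and 2.48 CPM against 4.59 and 5.12 CPM. The groups did not overlap. The log2 fold change was -0.99 ± 0.33 (SE), with an unadjusted p of 0.0216 and an adjusted p of 0.329 (edgeR). The direction held whichever library was left out, from -1.06 to -0.90. It passed without random shRNA replicate 1 (adjusted p = 0.0192, edgeR), without random shRNA replicate 2 (0.0350) and on the normalized scores (0.0340, limma), fits in which 14%, 32.3% and 19.6% of all features passed. It did not pass in the other alternatives, among them no filter (adjusted p = 0.223, edgeR), DESeq2 (0.503), limma-voom (0.398) and without either MERVL shRNA library (0.999 and 1.00).

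The 9 snoRNA rows of Gas5, which include Snord47, summed to 18.6 and 11.4 CPM in the MERVL shRNA libraries, against 11.4 and 18.7 CPM in the random shRNA libraries. The 8 rows of Snhg1 summed to 12.5 and 8.03 CPM in the MERVL shRNA libraries, against 8.45 and 13.4 CPM in the random shRNA libraries. Within each pair both sums had the order of Malat1, with replicate 1 above 2 in the MERVL shRNA pair and 2 above 1 in the random shRNA pair, but their highest value was in random shRNA replicate 2. Most single rows had the same order within pairs: 20 of 24 were higher in MERVL shRNA replicate 1 than 2, and 19 of 24 in random shRNA replicate 2 than 1.

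At the other loci the sums differed less within the groups or were low. The 2 rows of Snhg3, Snora73a and Snora73b, which act in processing of the small ribosomal subunit RNA, summed to 5.21 and 4.25 CPM in the MERVL shRNA libraries, against 7.23 and 6.05 CPM in the random shRNA libraries; they are 96.59% identical, so the split between them is uncertain. The 4 rows of Snhg12 summed to 6.74 and 5.96 CPM with MERVL shRNA, against 7.18 and 7.59 CPM with random shRNA. Like Snhg12 itself, neither sum overlapped between groups, as 21.8% of all genes tested do not in that direction. The Snhg5 rows summed to 1.25 and 1.28 CPM with MERVL shRNA, against 1.41 and 1.72 CPM with random shRNA, and the Snhg6 row, Snord87, to 1.16 and 0.603 CPM against 1.01 and 0.377 CPM; counts this low show only large differences.

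**Figure D4:**
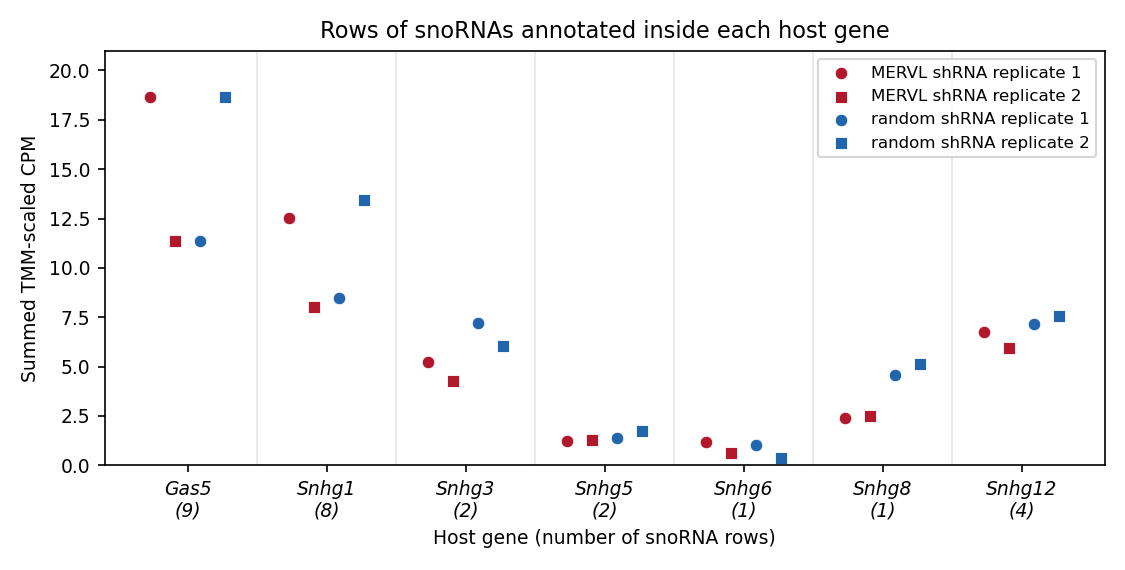
Summed TMM-scaled CPM of the snoRNA rows annotated inside each host gene, with the number of rows in brackets; red points are the MERVL shRNA libraries and blue points the random shRNA libraries, circles for replicate 1 and squares for replicate 2. Gas5 and Snhg1 rows are higher in replicate 1 of the MERVL shRNA pair and in replicate 2 of the random shRNA pair; both red points lie below both blue points for Snhg3, Snhg5, Snhg8 and Snhg12, a pattern that 21.8% of all genes tested show.

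Genes that work with these RNAs were taken from lists, and none of them passed in the 4-library edgeR test with the filter on low counts. Groups without overlap, given below for single genes, were common. Of all genes tested, 23% were higher in that way and 21.8% lower. At an unadjusted p under 0.05 there was 1 gene each among the paraspeckle, decay and non-ribosomal pyrimidine-start lists and 3 among the ribosomal protein genes, against 1765 of the 15735 genes tested, so none of these counts stands above the table as a whole. Of 19 paraspeckle protein genes, 11 fold changes were positive and 8 negative, with a median log2 fold change of 0.05, which became -0.0077 when libraries were scaled by totals only, 0.24 without random shRNA replicate 1 and -0.12 without random shRNA replicate 2. Nono, a core paraspeckle protein, had 653 and 689 CPM in MERVL shRNA cells, against 508 and 543 CPM in random shRNA cells, and Hnrnph3 had 77.7 and 70.5 CPM against 54.2 and 60.8 CPM. Neither overlapped between groups, and their adjusted p-values were 0.374 and 0.347 (edgeR). Of the 19 genes, 3 were higher without overlap and 2 lower. Rbm14 had the lowest fold change of the list, -0.51 ± 0.34 (SE) on the log2 scale, and its groups overlapped. It had 71.3 and 73.6 CPM in MERVL shRNA cells, against 142 and 64.3 CPM in random shRNA cells. The 25 nuclear speckle and SR protein genes, partners of Malat1, had a median of -0.00 on the log2 scale with 12 positive and 13 negative.

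Of the 8 core snoRNP protein genes, 6 fold changes were positive and 2 negative, with a median log2 fold change of 0.10. Dkc1, the pseudouridine synthase of box H/ACA particles, had 454 and 365 CPM in MERVL shRNA cells, against 213 and 362 CPM in random shRNA cells, so that its groups were separated by a small margin (adjusted p = 0.467, edgeR). Nop58, of box C/D particles, had 362 and 304 CPM in MERVL shRNA cells, against 275 and 285 CPM in random shRNA cells (adjusted p = 0.540, edgeR). The 12 snoRNP assembly genes had a median of -0.07, with 2 positive and 10 negative, which turned to 0.03, with 9 positive and 3 negative, without random shRNA replicate 1.

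For the 17 nonsense-mediated decay genes the median log2 fold change was -0.10, with 6 positive and 11 negative. It turned to 0.09, with 13 positive and 4 negative, without random shRNA replicate 1, and was -0.20, with 5 positive and 12 negative, without random shRNA replicate 2. In each of the fits with no filter, with a replicate block and with DESeq2, 1 of the 17 passed as higher (lowest adjusted p of 0.00285, 0.0407 and 0.0485). Of all features, counted in both directions, 4.75% passed with no filter, 738 of 16353 with the block and 228 of 27235 with DESeq2. Those that passed as higher were fewer, with 270, 110 and 70 features in the same order. On the normalized scores (limma), where 19.6% of features passed, 1 of the 17 passed as higher and 2 as lower. Pnrc2, a decapping co-factor of that pathway, had 83.7 and 91.4 CPM in MERVL shRNA cells, against 47.6 and 60.2 CPM in random shRNA cells, a log2 fold change of 0.70 ± 0.16 (SE; unadjusted p = 0.00434, adjusted p = 0.329, edgeR). Its groups did not overlap. Smg1, the kinase that phosphorylates Upf1, averaged 87.7 ± 10.4 CPM in MERVL shRNA cells and 111 ± 2.41 CPM in random shRNA cells (SD, n = 2 each), with an adjusted p of 0.374 in edgeR.

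Coding genes that start with a pyrimidine run were taken as 2 lists. Of 85 ribosomal protein genes, 81 had a positive fold change, with a median log2 fold change of 0.28, which was 0.22 with totals-only scaling. The median fell to 0.09, with 68 positive and 17 negative, without random shRNA replicate 1, and rose to 0.54 without random shRNA replicate 2. It was 0.37 without MERVL shRNA replicate 1 and 0.20 without MERVL shRNA replicate 2. In 41 of the 85 genes both MERVL shRNA libraries were above both random shRNA libraries, against 23% of all genes. None passed with all 4 libraries and the filter on low counts, while 1 passed with no filter and 3 on the normalized scores. Without random shRNA replicate 2, where 32.3% of all features passed, 62 of 85 passed as higher, and without random shRNA replicate 1, where 14% passed, 2 passed as lower. The 17 other coding genes of this class had a median of 0.08, with 11 positive and 6 negative. Among them Tpt1 had a log2 fold change of 0.37 ± 0.17 (SE), Pabpc1, the poly(A)-binding protein, -0.57 ± 0.18 (unadjusted p = 0.0186, adjusted p = 0.329, edgeR) and Eef1d -0.31 ± 0.15, each without overlap between groups.

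The other noncoding RNA lists had medians near 0. Of 8 further noncoding snoRNA hosts tested, 4 fold changes were positive and 4 negative (median log2 fold change -0.02), and of 13 other long noncoding RNAs 5 were positive and 8 negative (median -0.03). Without random shRNA replicate 2 the first median was 0.19, and the second was -0.36 without MERVL shRNA replicate 1 and 0.25 without MERVL shRNA replicate 2. Snhg20 had 27.5 and 20.8 CPM in MERVL shRNA cells, against 14.3 and 24.0 CPM in random shRNA cells, the library order of Malat1. For Pvt1 the groups did not overlap and the MERVL shRNA values were the higher ones, with a log2 fold change of 0.44 ± 0.19 (SE) and an adjusted p of 0.377 in edgeR. Tug1 had 104 and 84.0 CPM in MERVL shRNA cells, against 115 and 105 CPM in random shRNA cells, also without overlap.

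**Figure D5:**
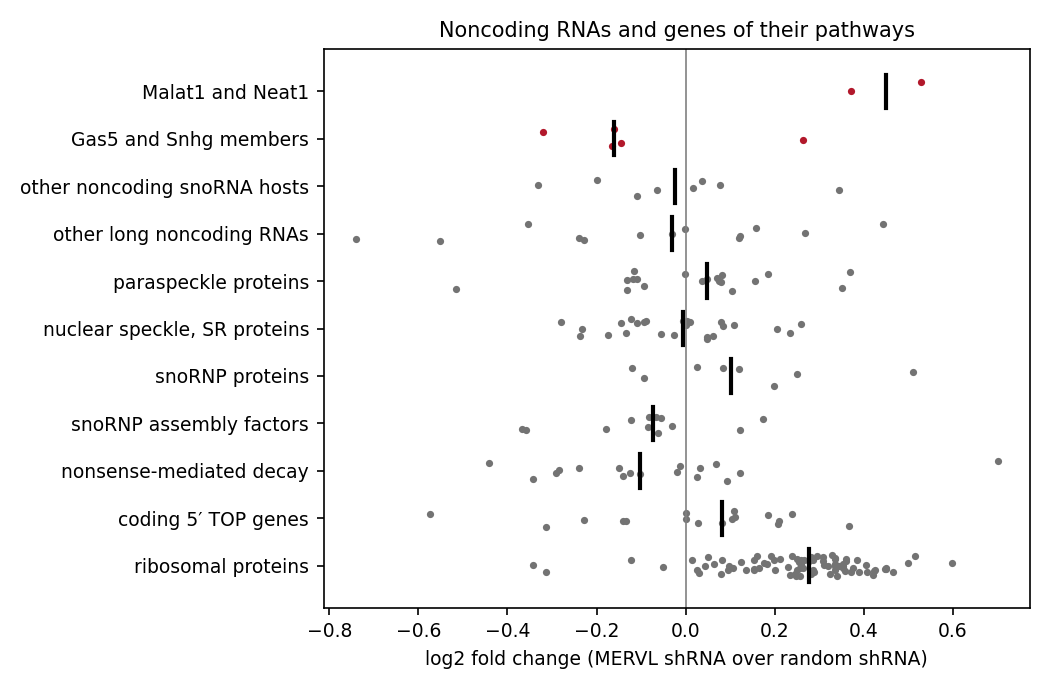
Log2 fold change of MERVL shRNA over random shRNA for each gene tested in 11 sets, one point per gene, with a black bar at the median; red points are the 7 noncoding RNAs and grey points genes of the named lists. The median is -0.16 for the host genes and 0.28 for the ribosomal protein genes, and no point passed the edgeR test with all 4 libraries and the filter on low counts.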

How the data were processed

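The authors deposited estimated counts for 45773 features (43496 Ensembl genes and 2277 MERVL copies), of which 19.1% to 20.8% per library were not whole numbers, and a second table of normalized scores made by a method the labels do not name. Trim Galore and HISAT2 were used on genome build mm10, per the submitters' processing notes. Versions, counting program and strand setting: not given in the sources used here. Symbols matched 42329 Ensembl identifiers, and positions came from GENCODE M21 on GRCm38.

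Estimated counts were rounded, filtered with filterByExpr, scaled by TMM and tested with edgeR 4.0.16 (R 4.3.3), quasi-likelihood, 2-sided, MERVL shRNA over random shRNA, with no replicate block. Benjamini-Hochberg adjustment covered every tested feature, and calls were made at 0.05. The procedure was tested on simulated data in which every library had the same spread, so its behaviour with a library that stands apart was not tested. CPM values are TMM-scaled, and standard errors come from the F statistic. Alternatives used DESeq2 1.42.0, limma 3.58.1 and limma on log2(score + 1). The members and gene lists were chosen with earlier results of these data known. Genes named are all members, their nearest or overlapping genes and snoRNAs, up to 3 genes per list with the smallest p and 2 with the highest mean, and the 3 genes nearest in pattern to Malat1, Neat1, Gas5 and Snhg12 (root mean square distance of centred log2 CPM).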

Additional observations from a re-analysis of the deposited data

How the results depend on the processing

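With all 4 libraries, 1 feature passed in edgeR, and 1 also passed with RLE, upper quartile or totals-only scaling, a CPM filter or a robust prior. The count was 1293 with no filter, 228 with DESeq2, 0 with limma-voom (1971 at an unadjusted p under 0.05) and 3500 on the normalized scores. Leaving out 1 library gave 2 to 5542 features, and 0 to 3 of the 7 noncoding RNAs. Of the 7, 1 passed with no filter and 1 on the normalized scores. With a replicate block 738 features passed, 110 higher and 628 lower, and 0 of the 7; deviations of same-numbered libraries had a correlation of 0.250 over 16353 features in 2 pairs, and the numbers are not stated to pair samples. The cause of these differences in count was not tested. Directions turned only with a library left out: Malat1 was -0.22 without MERVL shRNA replicate 1, Gas5 0.03 and Snhg3 0.0095 without MERVL shRNA replicate 2, Gas5 0.11 without random shRNA replicate 2, and Snhg6 -0.0817 without random shRNA replicate 1. Over the 4 fits that leave out a library, the log2 fold change ran from -0.22 to 0.81 for Malat1, from 0.12 to 0.88 for Neat1, from -0.25 to -0.0038 for Snhg5, from -0.33 to -0.27 for Snhg12, from -0.38 to 0.11 for Gas5, from -0.31 to 0.0095 for Snhg3 and from -0.0817 to 0.73 for Snhg6. Over 14 alternatives and 7 RNAs, 87 values kept both direction and side of the threshold. With 2 libraries a group, intervals are wide.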
